A study of Mus musculus with 60 samples.

Results

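Ftsj1, its 2 known protein partners in tRNA methylation and 4 other enzymes that methylate ribose in tRNA or mitochondrial ribosomal RNA were followed across 5 mouse organs. The 7 genes (Ftsj1, Wdr6, Thada, Trmt13, Trmt44, Mrm1 and Mrm3) were taken by symbol from the 55290 named genes of the poly-A tables, and all 7 were found and tested in every organ. Whole brain, heart, kidney, liver and spleen came from 6 male mice aged 4 months, 3 labelled Ftsj1_DF (Ftsj1-deficient) and 3 labelled WT (wildtype), fed ad libitum and given no treatment. One litter gave 4 of the mice (2 of each genotype) and another gave 2 (1 of each). How Ftsj1 was altered, and in which part of the gene, is something the sources used here do not give. Each organ has 6 poly-A libraries, and each comparison is Ftsj1-deficient minus wildtype, 3 mice against 3. The tables used here hold the authors' mean level over the 6 libraries, the log2 fold change and its standard error, so values of single mice are not shown. A member counts as called when the authors' adjusted p, from DESeq2's Wald test in that organ, was under 0.05. An adjusted p was given for 18263 (liver) to 23313 (kidney) of the 55290 named genes, here termed the genes tested.

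Ribose methylation adds a methyl group to the 2′ hydroxyl of a nucleotide and makes the RNA backbone more resistant to hydrolysis. Ftsj1 places this mark at a pair of positions in the anticodon loop of tRNAs such as the one for phenylalanine, working with Wdr6 at the wobble position and with Thada at the other. Loss of human FTSJ1 is a known cause of X-linked intellectual disability. Trmt13 modifies the acceptor stem of tRNAs and Trmt44 a uridine of serine tRNAs, while Mrm1 and Mrm3 each modify a guanosine of the large mitochondrial ribosomal RNA.

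Summed mean levels of the poly-A tables ran from 127968852 normalised counts in spleen to 337903927 in kidney, and the depth of single libraries is unknown. Markers of the labelled organ were highest in that organ for 5 of 5 genes in brain, heart, kidney and liver and for 4 of 5 in spleen, where the B cell gene Ms4a1 is listed at 0. Neutrophil markers were called higher in the deficient mice for 4 of 4 genes in heart, 2 of 4 in kidney and 2 of 4 in liver, at summed levels of 8.35, 2.28 and 4.50 ppm (parts of 1000000 of the organ's summed mean level). In brain and spleen 0 of 4 were called, at 6.63 and 274 ppm. Median log2 fold changes over the 4 were 2.05 in heart, 1.04 in kidney, 0.79 in liver, 1.16 in spleen and -0.18 in brain. The spleen median was thus above those of kidney and liver, though without a call. Of all genes tested, 0.541% were called in either direction in heart, 0.987% in kidney, 2.29% in liver, 0.0607% in brain and 0.0741% in spleen. Of 4 adipocyte markers, 1 was called lower in heart (Lep, log2 fold change -4.92 at 0.485 ppm) and 1 in liver (Cidec, -0.75 at 4.46 ppm). Over all 4 the medians were -2.05 in heart and -1.34 in liver, at summed levels of 28.4 and 5.31 ppm. Of 5 liver markers 2 were called lower in kidney, Ttr (-1.14 at 35.7 ppm) and Serpina1a (-1.08 at 12.0 ppm). The median over the 5 was -0.67 there. Most of their summed 1100 ppm was Cyp2e1 (1041 ppm), which was not called. Red cell markers had no call. The part of these cells in the values below was not tested.

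Ftsj1 mRNA fell in all 5 organs and was the gene with the smallest p of all genes tested in each. By the authors' deposited table, a remainder of 8.79% of the wildtype level (95% interval 7.16 to 10.8) was left in liver and 8.98% (7.03 to 11.5) in spleen. In heart 9.75% (6.68 to 14.2) was left, in kidney 14.0% (11.7 to 16.7) and in brain 15.4% (13.4 to 17.6), by the same deposited fold changes. In whole organs, fewer cells of a type and less RNA per cell cannot be told apart. Markers of the labelled organ had no call in that organ. Their median log2 fold changes were -0.082 in liver, 0.016 in spleen, -0.018 in heart, 0.013 in kidney and -0.027 in brain. The part of cell numbers in the fall of Ftsj1 was not tested. As log2 fold changes, the authors' deposited table gives -3.51 ± 0.15 (SE) in liver, -3.48 ± 0.18 in spleen, -3.36 ± 0.28 in heart, -2.84 ± 0.13 in kidney and -2.70 ± 0.10 in brain. Their adjusted p by DESeq2's Wald test ran from 3.89e-157 in brain to 4.69e-29 in heart. For scale, genes called lower made up 1.41% of all genes tested in liver, 0.0261% in spleen, 0.331% in heart, 0.648% in kidney and 0.0467% in brain. The sign of the tables was read from Ftsj1 itself, so its direction is not a separate result. Ftsj1 did not have the lowest fold change of the tables. Below it lay 2 tested genes in liver, 8 in brain, 15 in kidney, 33 in spleen and 120 in heart, called or not. Only 6 genes were called lower in spleen and 71 in heart, Ftsj1 among them.

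**Figure D1:**
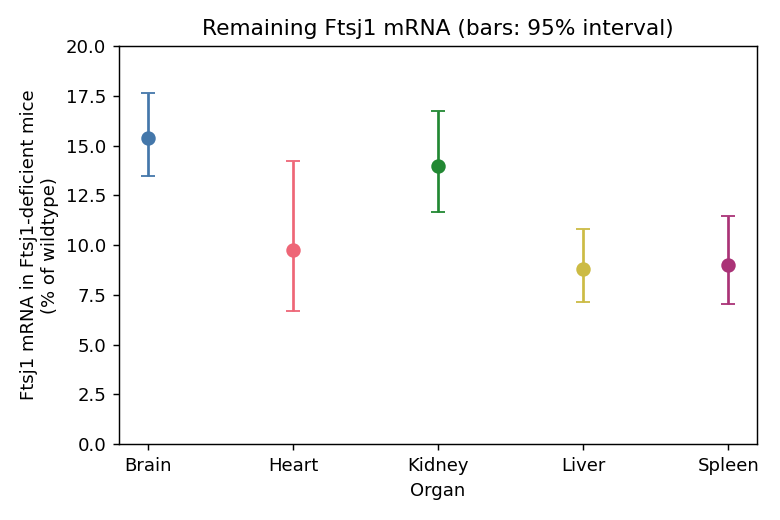
Ftsj1 mRNA left in the deficient mice, as percent of wildtype (y axis), for each organ (x axis). Points are the deposited fold changes and bars their 95% intervals; brain (15.4%) and kidney (14.0%) sit above liver (8.79%), spleen (8.98%) and heart (9.75%).

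The size of the Ftsj1 reduction differed between organs. Cochran's Q over the 5 deposited fold changes was 30.6, with an adjusted p of 0.00117 over 17391 genes, of which 1.22% passed. This test treats the organs as independent, although they came from the same mice. Brain kept 1.75 times the share of liver, a log2 difference of 0.81 (95% interval 0.45 to 1.16). Kidney kept 1.59 times the share of liver (0.67, interval 0.27 to 1.06). Of the 10 pairs of organs, 5 had an unadjusted interval that lay above 0: brain against liver, spleen and heart, and kidney against liver and spleen. No neighbours in the order liver, spleen, heart, kidney and brain differed beyond their interval. The call rested on brain and liver, since the adjusted p was 0.138 without brain and 0.0993 without liver.

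The mean level of Ftsj1 and its fold change together imply a wildtype level of 18.2 ppm in brain, 14.6 in liver, 14.2 in kidney, 13.4 in spleen and 7.36 in heart. Heart therefore had the lowest level of the wildtype mice, and it also had the widest standard error of the fold change. The tables were normalised separately, so an order of organs by level carries no test.

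Fold changes most like those of Ftsj1 were looked for among 17391 genes whose mean level reached 10 in every organ. Nearest was Lep, the gene of the adipocyte hormone leptin, at a root mean square distance of 1.62 on the log2 scale over the 5 organs. Gm4779 (2.02) and Dbp, a clock-controlled transcription factor gene (2.13), followed. Lep had log2 fold changes of -0.39 in brain and -4.92 in heart in the authors' deposited table, a wider range than that of Ftsj1. Its levels were low, from 0.0546 ppm in liver to 1.08 in kidney. Lep was called in heart alone and had no adjusted p in brain and liver. Its correlation with Ftsj1 over the 5 fold changes was 0.50.

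None of the other 6 genes was called in any organ. Of 30 pairs of gene and organ, 0 had an adjusted p under 0.05 by the authors' DESeq2 test and 1 had an unadjusted p under 0.05, with a smallest adjusted p of 0.554. Genes called in either direction made up 2.29% of all genes tested in liver, 0.0741% in spleen, 0.541% in heart, 0.987% in kidney and 0.0607% in brain, so that 0 of 6 is near the background. An unadjusted p under 0.05 was seen for 10.9%, 6.29%, 8.36%, 5.83% and 2.94% of all genes tested in these organs, in the same order. The 95% interval of the fold change held 0 in 29 of the 30 pairs and lay within 1.5-fold either way in 27. The 3 pairs whose interval reached past 1.5-fold were Thada in spleen, Trmt13 in spleen and Mrm1 in heart. Fold changes were above 0 in 13 pairs and below 0 in 17. Medians over the 6 genes were -0.088 in liver, -0.071 in spleen, 0.042 in heart, -0.035 in kidney and 0.054 in brain, against 0.0056, 0.014, -0.0052, 0.0046 and 0.0022 over all genes tested.

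**Figure D2:**
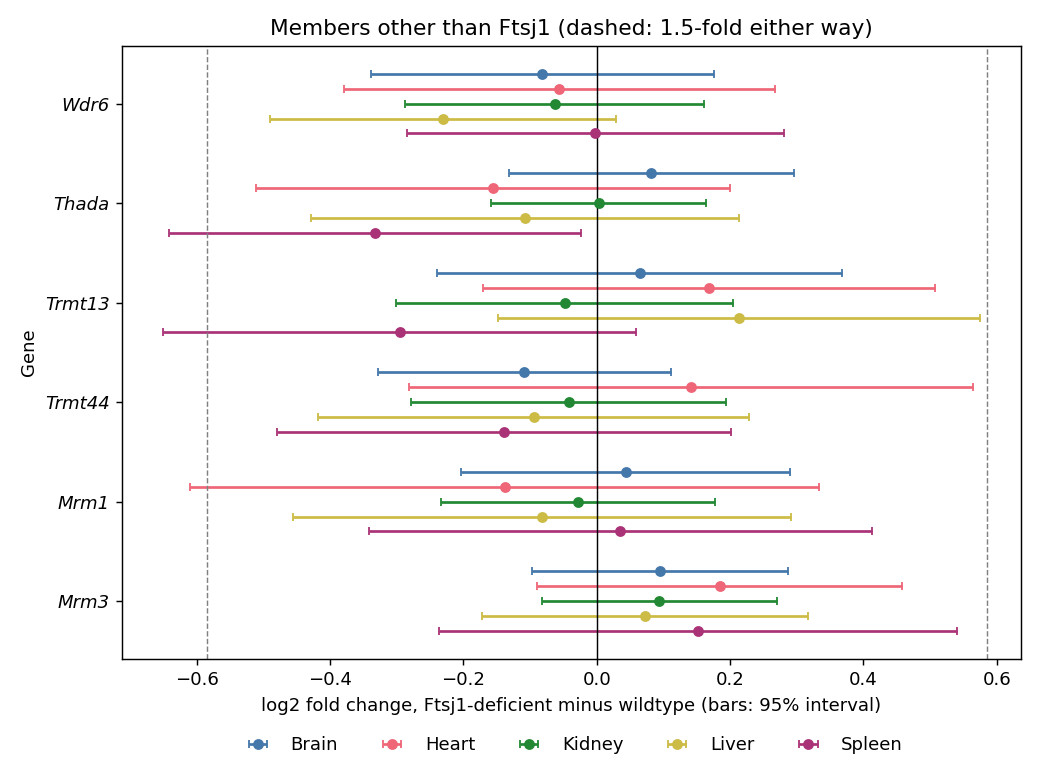
Log2 fold changes of the 6 genes other than Ftsj1 (x axis, Ftsj1-deficient minus wildtype) by gene (y axis) and organ (colours). Points are the authors' estimates, bars 95% intervals and dashed lines 1.5-fold either way; 29 of 30 bars cross 0 and 27 stay between the dashed lines.

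Wdr6, the WD-repeat partner of Ftsj1 at the wobble position, was below 0 in all 5 organs and called in none. The authors' deposited table gives log2 fold changes of -0.23 ± 0.13 (SE) in liver, -0.081 ± 0.13 in brain and -0.063 ± 0.11 in kidney. Those in heart and spleen were -0.057 ± 0.16 and -0.0022 ± 0.14. The liver value corresponds to 85.2% of wildtype (95% interval 71.2 to 102, adjusted p = 0.554 by the authors' DESeq2 test). All 5 intervals stayed within 1.5-fold. Wdr6 overlaps Dalrd3, a tRNA methylation cofactor gene on the opposite strand. Since it is not known whether counting used the strand, reads of the 2 genes may be mixed where they overlap. Dalrd3 had deposited log2 fold changes from -0.081 in liver to 0.32 in heart (adjusted p = 0.453 by the authors' test) and was not called either.

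Thada, a large helical-repeat protein and the partner of Ftsj1 at the other anticodon loop position, had the lowest fold change of the 6 genes. In spleen its log2 fold change was -0.33 ± 0.16 in the authors' deposited table, or 79.4% of wildtype (95% interval 64.1 to 98.4). The unadjusted p was 0.0350 and the adjusted p 0.750 by DESeq2, so the difference did not pass. The remaining organs gave -0.16 ± 0.18 in heart, -0.11 ± 0.16 in liver, 0.0028 ± 0.083 in kidney and 0.082 ± 0.11 in brain by the authors' deposited table. Kidney had the narrowest interval of all pairs, from 89.6 to 112% of wildtype. Cochran's Q gave no call of a difference between organs for Thada (adjusted p = 0.974).

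Trmt13, the acceptor stem enzyme, ran from the second lowest to the highest value of the 6 genes. Its deposited log2 fold changes were -0.30 ± 0.18 in spleen, -0.048 ± 0.13 in kidney, 0.064 ± 0.16 in brain, 0.17 ± 0.17 in heart and 0.21 ± 0.18 in liver, per the authors' deposited table. These differences between organs did not pass (adjusted p = 0.989 by Cochran's Q). Trmt13 lies on chromosome 3 on the strand opposite to Lrrc39 and to Sass6, which encodes a protein of centriole assembly. Its span over all transcripts of GENCODE M21 overlaps both. The start sites of Trmt13 and Sass6 in the RefSeq table lie apart. Reads of the overlapping genes may be mixed here as well. In heart the mean level of Lrrc39 was 11220 normalised counts against 1216 for Trmt13, while elsewhere Lrrc39 reached at most 543. Lrrc39 was called in no organ. Sass6 rose in liver, with a log2 fold change of 0.68 ± 0.20 and an adjusted p of 0.0285 by DESeq2 (the authors' deposited table), and was not called elsewhere. Trmt13 in liver had 116% of wildtype (95% interval 90.2 to 149). The 70 bases between the RefSeq start sites of Trmt13 and Sass6, shown because the 2 genes are read away from each other from it, are chr3:116594888-116594957 of GRCm38.p6, plus strand, from RefSeq:
Trmt13/Sass6: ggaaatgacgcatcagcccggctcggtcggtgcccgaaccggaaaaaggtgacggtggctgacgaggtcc

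Trmt44, the serine tRNA enzyme, had no unadjusted p under 0.05. By the authors' deposited table its log2 fold changes were -0.14 ± 0.17 in spleen, -0.11 ± 0.11 in brain, -0.095 ± 0.17 in liver, -0.042 ± 0.12 in kidney and 0.14 ± 0.22 in heart. All 5 intervals lay within 1.5-fold. The smallest adjusted p over the organs was 0.925 by the authors' DESeq2 test.

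Mrm1 and Mrm3, which act on mitochondrial ribosomal RNA, were also called in no organ. Mrm3 was above 0 in all 5 organs, with deposited log2 fold changes of 0.18 ± 0.14 in heart, 0.15 ± 0.20 in spleen, 0.095 ± 0.098 in brain, 0.094 ± 0.090 in kidney and 0.073 ± 0.12 in liver (authors' deposited table). The heart value was 114% of wildtype (95% interval 94.0 to 137, adjusted p = 0.822 by DESeq2), and all 5 intervals held 0. Mrm1 lay between -0.14 ± 0.24 in heart and 0.043 ± 0.13 in brain by the authors' deposited table. In heart its interval reached from 65.5 to 126% of wildtype, with the lowest bound of the 6 genes in that organ. Mrm3 starts head to head with Glod4 on chromosome 11, where their GENCODE M21 spans overlap and their RefSeq start sites do not. The 36 bases between the RefSeq start sites, chr11:76243700-76243735 of GRCm38.p6, plus strand, from RefSeq, are shown for the motif they hold:
Mrm3/Glod4: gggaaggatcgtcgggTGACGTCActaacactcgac
Capitals mark TGACGTCA, the palindromic cAMP response element bound by CREB and ATF factors, which reads the same on both strands. It occurs in 1.79% of 32851 RefSeq windows from 250 bases before to 50 after a start, and in those of Mrm3 and Thada among the 7 genes. A match describes the letters only. Glod4 was called in no organ, with deposited log2 fold changes from -0.047 in liver to 0.21 in spleen by the authors' deposited table. Its mean level was above that of Mrm3 in every organ, as in kidney with 22236 against 3210 normalised counts. Reads of Glod4 and Mrm3 may therefore also be mixed where their spans overlap.

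Mean levels over both genotypes spread by 2.17 times (Mrm3) to 14.8 times (Wdr6) between the highest and the lowest organ, and by 2.61 times for Ftsj1. Wdr6 stood at 166 ppm in brain, 57.6 in spleen, 34.1 in kidney, 17.4 in heart and 11.2 in liver. Leaving the 100 most abundant genes of each organ out of the sum, since they take from 18.5% of it in brain to 53.7% in heart, brought this ratio to 9.48. Mrm1 was highest in spleen (17.7 ppm) and lowest in liver (1.66), 10.7 times apart. Thada and Trmt44 were also highest in spleen, at 34.4 and 10.9 ppm, and lowest in liver, at 6.99 and 2.37. With either sum, the highest and lowest organs of Wdr6, Thada, Trmt44 and Mrm1 were the ones given here.

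**Figure D3:**
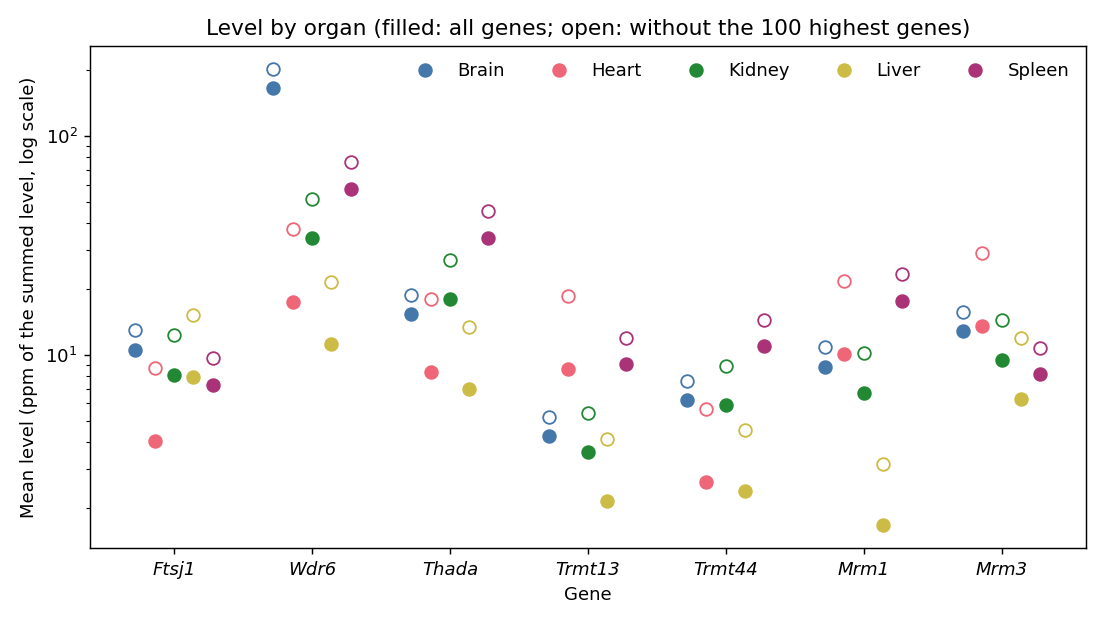
Mean level in ppm over the 6 libraries of an organ (y axis, log scale) for the 7 genes (x axis), coloured by organ. Filled points use the sum of all genes and open points the sum without the 100 highest; Wdr6 in brain is the highest point under both, at 166 and 203.

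For the other members the order depended on the sum. Ftsj1 was highest in brain (10.5 ppm) and lowest in heart (4.04), but highest in liver (15.2) without the 100 most abundant genes. Trmt13 was highest in spleen (9.09) and lowest in liver (2.14), but highest in heart (18.6) by the reduced sum. Whether reads of the overlapping Lrrc39, also high in heart, entered the Trmt13 level was not tested. Mrm3 was highest in heart (13.5) under both sums, and lowest in liver (6.25) by the full sum and in spleen (10.8) by the reduced one. Per kilobase of annotated exon, brain held 39.8 ppm of Wdr6, 6.62 of Mrm3, 3.07 of Mrm1, 2.21 of Ftsj1, 1.33 of Thada, 1.20 of Trmt44 and 0.691 of Trmt13. Wdr6 led by this measure in brain, kidney and spleen, while in heart Mrm3 (6.99) was above Wdr6 (4.18) and in liver likewise (3.23 against 2.69). Exon lengths are of GENCODE M21 on GRCm38 and hold all annotated transcripts, so they can exceed the length of the expressed one.

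Genes whose level over the 5 organs was shaped most like that of each member were found by root mean square distance of centred log2 levels. For Ftsj1 these were Kif13b, a kinesin gene (0.074), Hgsnat, of lysosomal heparan sulfate breakdown (0.079), and Gm8918 (0.087). Wdr6 was nearest to Purb, a nucleic acid binding protein gene (0.060), Pip5k1c, a lipid kinase gene (0.10), and Zc4h2 (0.13). Thada was nearest to Hltf (0.072), Fbxo46 (0.078) and Gna13 (0.080), and Trmt44 to Med13 (0.068), Gm12475 (0.090) and Gm7517 (0.096). The remaining members had Lzic (0.10), Loxl3 (0.14) and Abi3bp (0.17) nearest to Trmt13, Gm41442 (0.085), Gramd4 (0.13) and Cep128 (0.14) to Mrm1, and 5730419F03Rik (0.077), Gm3549 (0.089) and Gm37240 (0.10) to Mrm3. These distances rest on 5 organ means and describe no more than the shape.

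Related enzymes were read from 5 gene lists holding 51 genes, of which 3 (Mrm2, Cmtr1 and Adat3) are listed at 0 in every organ and could not be tested. Of 233 pairs of gene and organ tested, 0 passed the authors' adjusted p of 0.05 by DESeq2 and 11 had an unadjusted p under 0.05. Over all genes tested, 0.0607% (brain) to 2.29% (liver) were called. An unadjusted p under 0.05 was seen for 2.94% (brain) to 10.9% (liver), so neither count sets the listed genes apart. Among other RNA ribose methyltransferases, which include the small nucleolar RNA-guided enzyme gene Fbl and the cap enzyme gene Cmtr2, 4 to 6 genes were tested per organ. Their medians ran from -0.078 in brain to 0.019 in heart. Henmt1, which methylates the ends of piRNAs, came nearest to the threshold, with a log2 fold change of -0.86 ± 0.28 in kidney (the authors' deposited table, adjusted p = 0.169). Fbl had 0.22 ± 0.13 in kidney (adjusted p = 0.987). The protein partners of fibrillarin, Nop56, Nop58 and Snu13, had medians from -0.019 in brain to 0.29 in liver, where Nop58 was at 0.37 ± 0.14 and Nop56 at 0.29 ± 0.22 (0.178 and 0.724 as adjusted p by the authors' deposited table).

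The wybutosine pathway builds a bulky base beside the anticodon of phenylalanine tRNA, a substrate of Ftsj1. All 6 of its genes were tested in every organ, and none had an unadjusted p under 0.05. Their medians ran from -0.081 in kidney to 0.14 in spleen. Trmt5, which starts the pathway, and Trmt12 had the smallest p, with deposited log2 fold changes of 0.30 ± 0.17 and 0.26 ± 0.15 in heart (0.676 and 0.703 as adjusted p by the authors' deposited table). Other enzymes of the anticodon loop, such as the Elongator subunits and the queuosine enzymes, gave 31 or 32 tested genes per organ. Their medians lay between -0.050 in liver and 0.051 in heart, and 5.73% of 157 pairs had an unadjusted p under 0.05. Over all genes tested that share ran from 2.94% in brain to 10.9% in liver. Alkbh8, which modifies wobble uridines, was at -0.42 ± 0.14 in heart, and Trdmt1, which methylates a cytosine of the loop, at -0.44 ± 0.17 in liver. The authors' deposited table gives both an adjusted p of 0.211. Trmt112, an activator shared by several methyltransferases, ranged from -0.51 ± 0.48 in heart to 0.34 ± 0.29 in spleen (0.904 and 0.917 as adjusted p by the authors' deposited table).

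**Figure D4:**
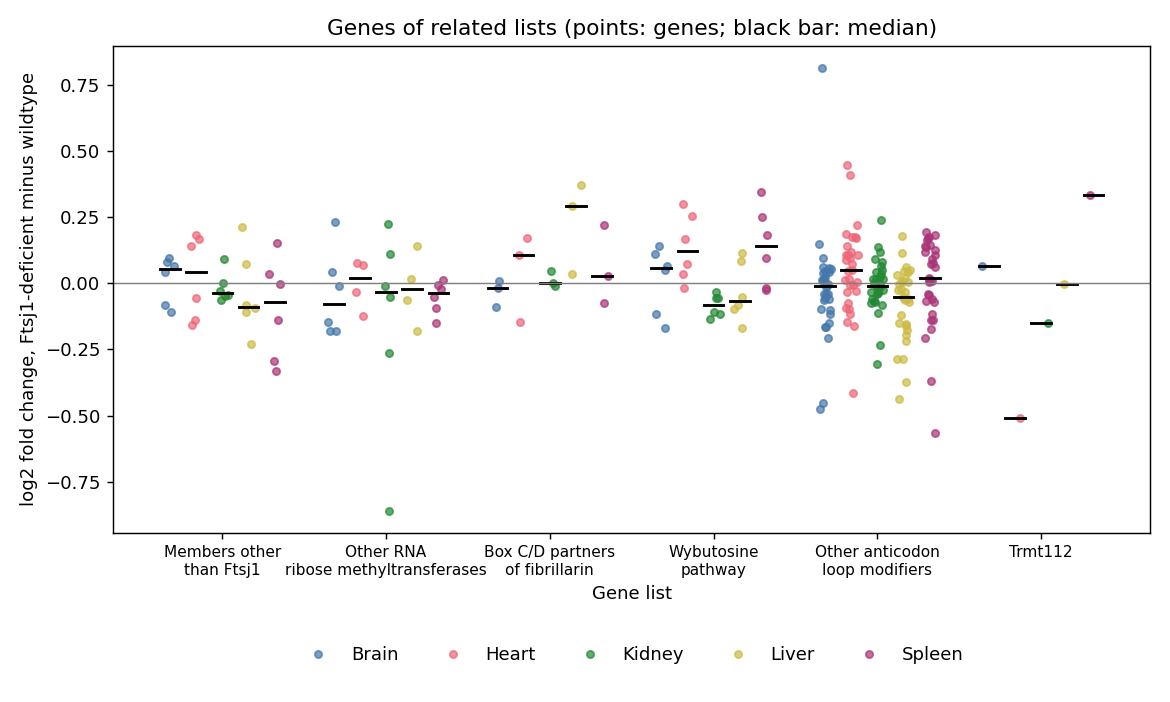
Log2 fold changes (y axis, Ftsj1-deficient minus wildtype) of the 6 members other than Ftsj1 and of the tested genes of each list (x axis) by organ (colours), with black bars at the medians. No gene shown was called; the farthest below 0 is Henmt1 in kidney (-0.86).

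Genes beside Ftsj1 on the X chromosome were read to see whether the fall extended to them. Porcn, of Wnt secretion, and Ebp, of cholesterol synthesis, precede it, and Slc38a5, a glutamine transporter gene, and Gm14459 are the nearest genes tested after it in the order of GRCm38.p6. None was called in any organ where it had an adjusted p. That value was absent for Slc38a5 in kidney (-1.60 ± 1.27 at a mean level of 4.69 normalised counts) and for Gm14459 in heart and liver. Porcn lay between -0.11 ± 0.26 in heart and 0.45 ± 0.19 in liver, and Ebp between -0.18 ± 0.11 in liver and 0.35 ± 0.19 in spleen, by the authors' deposited table. Slc38a5 was at -1.56 ± 0.58 in heart and 3.68 ± 1.17 in liver, where its mean levels were 36.5 and 76.1 normalised counts (0.298 and 0.0656 as adjusted p by the authors' deposited table). At its higher levels of 531 in brain and 1396 in spleen, Slc38a5 had 0.16 ± 0.19 and -0.22 ± 1.02 by the authors' deposited table, so the spleen estimate was imprecise as well. Gm14459, at a level of at most 30.3, had an SE of 0.81 or more and allows no statement.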

How the data were processed

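For each organ, 6 poly-A libraries (3 per genotype) were prepared with a stranded kit from bead-milled, phenol-extracted tissue, per the labels' protocols. The submitters' processing notes name GRCm39, featureCounts of Subread 2.0.3 and DESeq2; the sources used here do not give the aligner, the annotation or the use of strand. The authors deposited, as signal, the mean normalised count of an organ's libraries (DESeq2's column, by its header). Log2 fold changes with standard errors were deposited as well. The Wald score and the p-value columns, raw and Benjamini-Hochberg adjusted, are the authors' too.

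Computed here, with Python 3.11.15, numpy 2.4.6, scipy 1.17.1 and pandas 2.3.3, were 95% intervals (1.96 standard errors), levels in ppm, Cochran's Q over organs for genes at a mean level of 10 or more in each (Benjamini-Hochberg over all), list medians and distances. Cochran's Q was run on simulated fold changes, drawn independently per organ with the deposited standard errors taken as exact. That run cannot speak to organs that share mice or to standard errors estimated from few mice. The 1 unnamed entry per table, at most 0.000198% of the summed level, was left out. No count model was fitted, since the tables hold comparisons. The named genes are the 7 members, called list genes or else the 2 with the smallest p per list, 2 testable neighbours on each side of Ftsj1, and the 3 genes most alike; overlapping genes were named after their values were seen. Members and lists were chosen with earlier results of these data known. Marker sets were those of the 5 organs, neutrophils, adipocytes and red cells. The 20 tables of non-coding RNAs were not used here. RefSeq and GENCODE references are of GRCm38, so gene positions of the authors' build are not printed. All 7 members matched the RefSeq promoter table by symbol.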

Additional observations from a re-analysis of the deposited data

Results flagged for a closer look

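The fall of Ftsj1 differed in size between the organs, by a test of the difference itself (Cochran's Q, adjusted p = 0.00117 over 17391 genes). It left 15.4% of wildtype in brain and 8.79% in liver, by the authors' deposited fold changes. The test takes the organs as independent and the standard errors as known, and its call was lost without brain or without liver.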

How the results depend on the processing

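Adjusting over every gene with a p-value, over genes at a mean level of 10 or more or over the 5 tables together, and centring each organ on its median, left the counts of calls among members, lists and X chromosome neighbours as they were. Centring put Thada in kidney at -0.0023. A threshold of 0.1, tried for the members, changed none of their calls; Slc38a5 in liver (adjusted p = 0.0656) lies under it. The neighbours' alternatives were added after seeing the data. A t reference with 4 degrees of freedom for the Wald score, adjusted without the authors' filter over 31997 (liver) to 35275 (kidney) genes, called 0 genes of any kind in any organ, Ftsj1 included. The Ftsj1 fold changes of -3.51 in liver, -3.48 in spleen, -3.36 in heart, -2.84 in kidney and -2.70 in brain then had adjusted p of 0.652, 0.999, 0.999, 0.997 and 0.379. Even a Wald score of -27.1, that of Ftsj1 in brain, did not pass under this reference over so many genes. The setting therefore cannot tell a strong fall from none, and no conclusion about Ftsj1 is drawn from it. Dropping the filter alone left Ftsj1 called in all 5 organs. The difference of Ftsj1 between organs kept its call without heart, kidney or spleen, centred or unfiltered, and lost it without brain (adjusted p = 0.138) or liver (0.0993). The ratio of Wdr6 between organs moved to 9.48 without the 100 highest genes. No paired analysis was possible because the deposited tables give no value per mouse, and leaving out single mice was not possible either. Depth per library is unknown.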
